A study of Homo sapiens with 2 samples.

Results

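The genes described here are 9 interferon response genes, chosen by name: the regulators STAT2, IRF1 and IRF7, and the antiviral effectors ISG15, ISG20, IFI6, MX1, IFITM1 and IFITM2. All 9 were read, out of 16645 annotated genes with a read, and they comprised 366 of the 237608 transcript models. The reads came from GM12878, an established human line of B lymphoblasts that Epstein-Barr virus immortalized. Its RNA was sequenced directly as native strands on Oxford Nanopore flow cells, in 2 replicate libraries of 1 group. The labels name no treatment, no interferon and no second line, so every difference below is a difference between these 2 libraries and not between conditions. Nothing in the labels says whether the libraries came from separate cultures. The p-values take each read as an independent draw and set a difference between the 2 libraries against counting error only. They do not measure the spread between libraries, so a difference that passed may be technical.

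Interferons bind receptors at the cell surface, whose kinases phosphorylate STAT proteins. STAT2 then joins IRF9 in a complex that binds the interferon-stimulated response element (ISRE) in the promoters of the response genes. The products of these genes restrict viruses at entry, replication and assembly. Cells carrying Epstein-Barr virus are known to express IRF7 and part of the response without added interferon.

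The ISRE is what most of these genes are known for, and the promoters with most copies of its core are shown first. The 250 bases before each RefSeq start site (RefSeq sequences, GRCh38.p14) were searched on both strands for the core of the element, a pair of GAAA separated by any 2 bases, and overlapping matches were allowed. The table of promoters held 7 of the 9 genes in 9 windows, without IRF7 and IFITM2. The core was found in 5 of these windows, those of ISG15, IFI6, IFITM1, ISG20 and MX1. Of all 35116 windows in the table, 1061 held it (3.02%). A match describes the letters only. In the sequences that follow, capitals mark the ISRE core, and only bases outside the exons of the gene in GENCODE release 29 are printed.
ISG15 (chr1:1013247-1013422, plus strand): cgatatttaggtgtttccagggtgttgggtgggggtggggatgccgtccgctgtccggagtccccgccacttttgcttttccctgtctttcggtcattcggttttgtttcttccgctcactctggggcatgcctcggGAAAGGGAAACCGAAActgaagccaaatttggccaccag
IFI6 (chr1:27672219-27672442, minus strand): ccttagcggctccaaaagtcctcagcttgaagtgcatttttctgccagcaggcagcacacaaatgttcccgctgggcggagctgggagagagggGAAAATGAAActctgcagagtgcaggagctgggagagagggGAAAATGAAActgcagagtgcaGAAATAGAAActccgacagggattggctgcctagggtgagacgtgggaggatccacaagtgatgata

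ISG15 carried 2 overlapping cores, which began 113 and 107 bases before the start site. IFI6 carried 3, at 156, 115 and 93 bases. In IFITM1, ISG20 and MX1 the core lay inside an exon annotated by GENCODE, and only 30 bases around it are given.
IFITM1 (chr11:313990-314019, plus strand): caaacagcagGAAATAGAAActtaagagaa
ISG20 (chr15:88638937-88638966, plus strand): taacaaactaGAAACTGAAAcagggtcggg
MX1 (chr21:41431844-41431873, plus strand; the core is on the minus strand): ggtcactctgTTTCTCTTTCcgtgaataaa

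The IFITM1 core began 40 bases before the RefSeq start, within the first exon of IFITM1-202, the model that received most reads of the gene. The ISG20 core began 69 bases before the RefSeq start and likewise lay within an exon of ISG20-201, the most read ISG20 model. The MX1 core belonged to the window of a downstream start and not to that of MX1-202. The STAT2 and IRF1 windows did not hold these letters.

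The depth was 1360368 reads in replicate 1 and 1510998 in replicate 2. Levels are given in CPM, reads scaled to the total of the library, on which a single read counts 0.735 in replicate 1 and 0.662 in replicate 2. Of 5 B cell markers, all were read in both libraries, with means from 43.0 to 684 CPM and summed levels of 1175 and 1162 CPM. Of 11 markers of other cell types, 6 had no read in either library. The sum of all 11 was 30.9 CPM in replicate 1 and 45.7 CPM in replicate 2, most of it IL3RA, with 33 and 47 reads. In bulk RNA, fewer cells of a type and less RNA per cell cannot be told apart.

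IFITM1, a membrane protein that blocks virus entry at the cell surface, had the highest level. Its mean was 711 CPM ± 206 (SD, n = 2), rank 186 among all annotated genes. The dynamin-like GTPase MX1 followed with 336 CPM ± 23.8 (SD, n = 2), and the ubiquitin-like modifier ISG15 with 329 CPM ± 40.1 (SD, n = 2). IFITM2, which acts on viruses in endosomes, had 249 CPM ± 68.2 (SD, n = 2). IRF7, the factor that drives transcription of type I interferon genes, had 125 CPM ± 39.5 (SD, n = 2). The exonuclease ISG20 had 110 CPM ± 27.3 and the membrane protein IFI6 had 108 CPM ± 21.1 (SD, n = 2 each). The transcription factor IRF1 had 54.8 CPM ± 2.59 (SD, n = 2), and STAT2 was lowest with 33.5 CPM ± 7.86 (SD, n = 2), rank 3986. A direct RNA read is 1 RNA strand, so these levels count strands and are not divided by length.

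**Figure D1:**
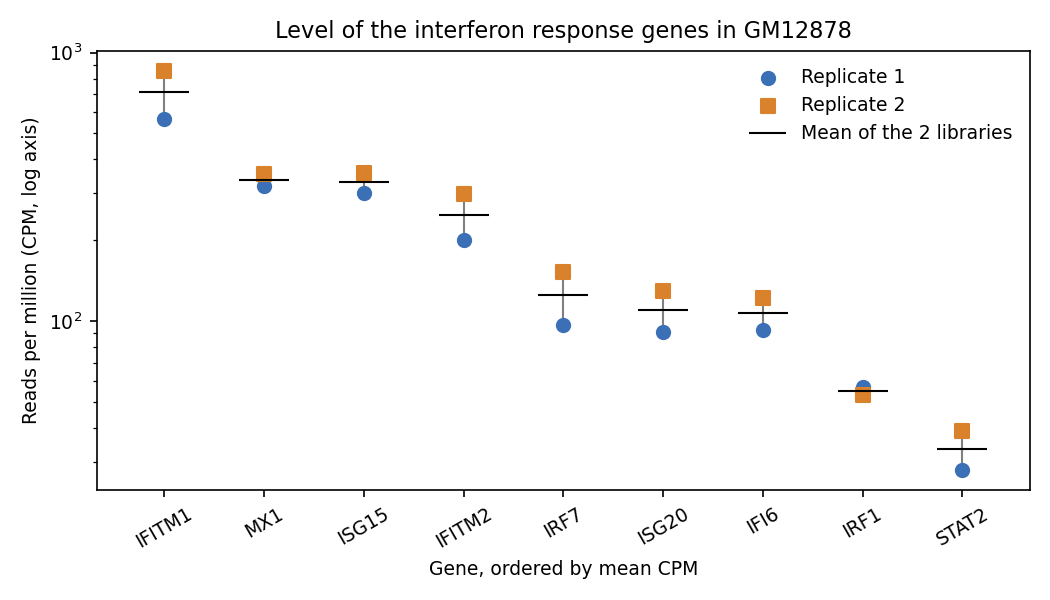
Level of each of the 9 genes in CPM (log axis), with circles for replicate 1, squares for replicate 2 and a bar for their mean. IFITM1 sits at 565 and 856 CPM, above every other gene, and STAT2 at 27.9 and 39.0 CPM, below every other gene; replicate 2 lies above replicate 1 in 8 of the 9 genes.

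In the order of levels, the ranges of MX1 (319 to 353 CPM) and ISG15 (301 to 357 CPM) overlapped. So did those of IRF7 (97.0 to 153 CPM), ISG20 (91.2 to 130 CPM) and IFI6 (92.6 to 122 CPM). The other neighbours did not overlap, although the lower library of ISG15 lay only just above the 297 CPM of IFITM2 in replicate 2. The 9 genes together took 2382 reads of replicate 1 (0.175%) and 3567 of replicate 2 (0.236%).

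IFITM1, IFITM2, IRF7 and ISG20 had a larger part of replicate 2 than of replicate 1, and these 4 of the 9 genes passed the test between the libraries, all of them upward. Across all 10634 genes tested, 5.05% passed in either direction, 2.72% upward and 2.33% downward. Among the 4186 genes with at least 90 reads, a minimum chosen after the counts of these genes had been seen, 5.26% passed upward. The median log2 ratio of replicate 2 to replicate 1 was 0.48 over the 9 genes (range -0.10 to 0.65) and 0.01 over all genes tested.

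IFITM1 had 769 reads in replicate 1 and 1294 in replicate 2, or 565 and 856 CPM. Its log2 ratio was 0.60, with a 95% exact interval for counting error of 0.47 to 0.73 (exact binomial test, Benjamini-Hochberg adjusted p of 7.51e-18). IFITM2 had 273 and 449 reads, or 201 and 297 CPM, which gave a log2 ratio of 0.57 (0.35 to 0.79) with an adjusted p of 2.1e-05 in the exact binomial test. Both IFITM genes were thus about as much higher in replicate 2 as each other, with overlapping intervals.

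IRF7 had 132 and 231 reads, or 97.0 and 153 CPM, which gave a log2 ratio of 0.65 (0.34 to 0.98) with an adjusted p of 0.0012 in the exact binomial test. Models of 9 or more exons held 88 of these IRF7 reads in replicate 1 and 95 in replicate 2. Most of the added IRF7 reads were thus in models of fewer exons, and neither part was tested alone. ISG20, which degrades single-stranded RNA, had 124 and 196 reads, or 91.2 and 130 CPM, which gave a log2 ratio of 0.51 (0.18 to 0.85) with an adjusted p of 0.043 in the exact binomial test. The call of ISG20 was close to the threshold: with TMM scaling its adjusted p was 0.060, and with no minimum read number 0.067 (exact binomial test).

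The other 5 genes did not pass. IFI6 had 126 and 185 reads, or 92.6 and 122 CPM, and its log2 ratio was 0.40 (0.07 to 0.74), with an adjusted p of 0.17 in the exact binomial test. ISG15 had 409 and 540 reads, or 301 and 357 CPM, and its log2 ratio was 0.25 (0.06 to 0.44), with an adjusted p of 0.11 in the exact binomial test. MX1 had 434 and 533 reads, or 319 and 353 CPM, and a log2 ratio of 0.14 (-0.04 to 0.33). STAT2 had 38 and 59 reads, or 27.9 and 39.0 CPM, and a log2 ratio of 0.48 (-0.13 to 1.11), so a difference in either direction was within its counting error. IRF1, which binds sites close to the ISRE, was alone in lying lower in replicate 2, with 77 and 80 reads, 56.6 and 52.9 CPM, and a log2 ratio of -0.10 (-0.57 to 0.37).

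**Figure D2:**
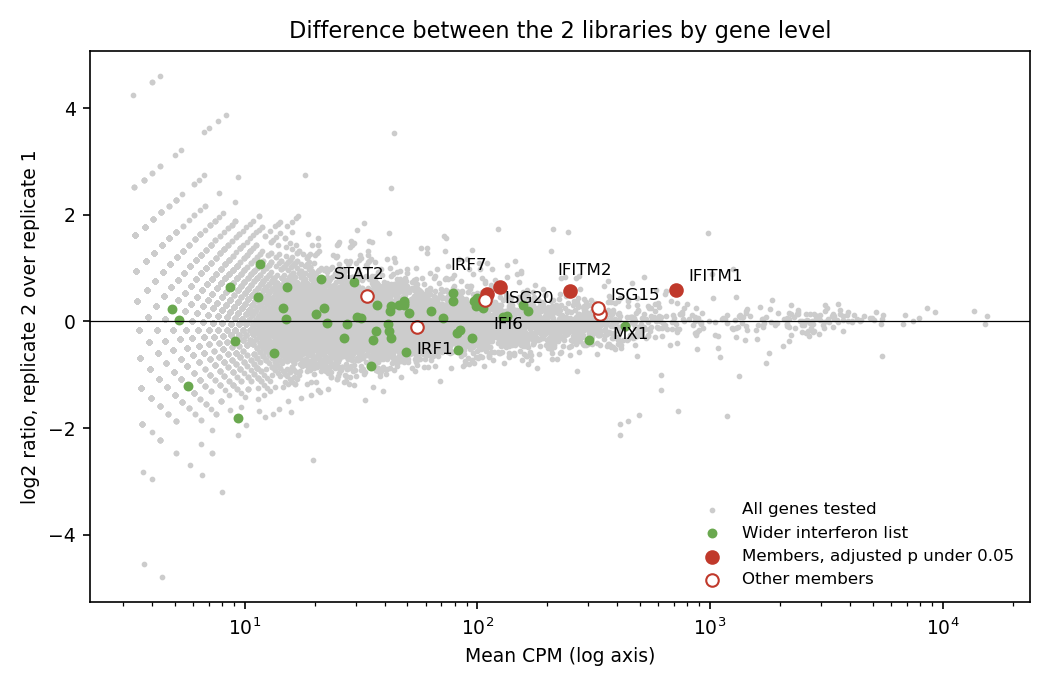
Log2 ratio of replicate 2 to replicate 1 against mean CPM (log axis) for all genes tested (grey), the wider interferon list (green) and the 9 genes (red circles, filled where the adjusted p was under 0.05). The filled circles are IFITM1, IFITM2, IRF7 and ISG20, between 0.51 and 0.65; IRF1 is the open circle below 0.

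IFITM1 and IFITM2 lie side by side on chromosome 11, together with IFITM3, and the sequences of the 3 genes are alike. In GENCODE release 29, IFITM1 (313506 to 315272, plus strand) lies within the span annotated for IFITM2 (307631 to 315272, plus strand), whose model IFITM2-201 reaches across both. No read was assigned to IFITM2-201. IFITM3 was listed with 0 reads in replicate 1, which allows up to 2.21 CPM, and with 1 read in replicate 2. The start of the 3 coding sequences (GENCODE release 29 transcripts, bases 1 to 150) is shown to let the likeness of the genes be seen. Capitals mark bases of IFITM1 and IFITM3 that are not matched by an identical base when the whole coding sequence is aligned with that of IFITM2.
IFITM2-206: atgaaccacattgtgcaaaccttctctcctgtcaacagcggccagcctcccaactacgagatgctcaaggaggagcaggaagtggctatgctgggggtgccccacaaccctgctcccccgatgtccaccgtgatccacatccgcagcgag
IFITM1-202: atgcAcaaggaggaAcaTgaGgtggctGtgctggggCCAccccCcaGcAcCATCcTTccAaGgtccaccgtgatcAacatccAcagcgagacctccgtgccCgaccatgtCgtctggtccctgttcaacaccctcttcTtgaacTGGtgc
IFITM3-201: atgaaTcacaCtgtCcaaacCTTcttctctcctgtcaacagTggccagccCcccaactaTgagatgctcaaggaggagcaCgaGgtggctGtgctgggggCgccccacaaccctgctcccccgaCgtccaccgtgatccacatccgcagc

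Over 396 aligned coding bases, IFITM2 and IFITM3 were identical at 372 (93.9%). IFITM1 and IFITM2 were identical at 287 of 336 aligned bases (85.4%), and the coding sequence of IFITM1 is shorter, with 375 bases against 396. How reads with errors were divided between such close copies is not given in the sources used here, so the division of reads between IFITM2 and IFITM3 is uncertain.

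The category of a model says how a read fitted the annotation. Known models match an annotated transcript, and incomplete splice matches (ISM) hold part of its chain of junctions. An ISM model of 1 exon holds none of the junctions. NIC models join annotated splice sites in new ways, NNC models have an unannotated splice site, and genomic models overlap a gene without following its splicing. IFITM1, IFITM2, ISG15, ISG20 and IFI6 had most of their reads in known models in both libraries, and IRF1, IRF7, MX1 and STAT2 did not. IFITM1, IFITM2 and ISG15, with main models of 855, 892 and 711 bases and 2 exons, had 86.8 to 93.1%, 83.7 to 89.4% and 79.8 to 90.7% of their reads in known models. For IFI6 (841 bases) the known share was 61.1% in replicate 1 and 54.6% in replicate 2, and for ISG20 (1856 bases) 71.0% and 69.4%. IRF1 (3579 bases) had 41.6% and 22.5%, and IRF7 (2051 bases) 18.9% and 18.2%. MX1 (2850 bases) had 7.37% and 1.69%. STAT2 (3259 bases) had 3 of 38 reads in replicate 1 (7.89%, Wilson 95% interval 2.72 to 20.8%) and 0 of 59 in replicate 2, which allows up to 5.08%. The median gene had a known share of 32.5% and 17.5%.

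**Figure D3:**
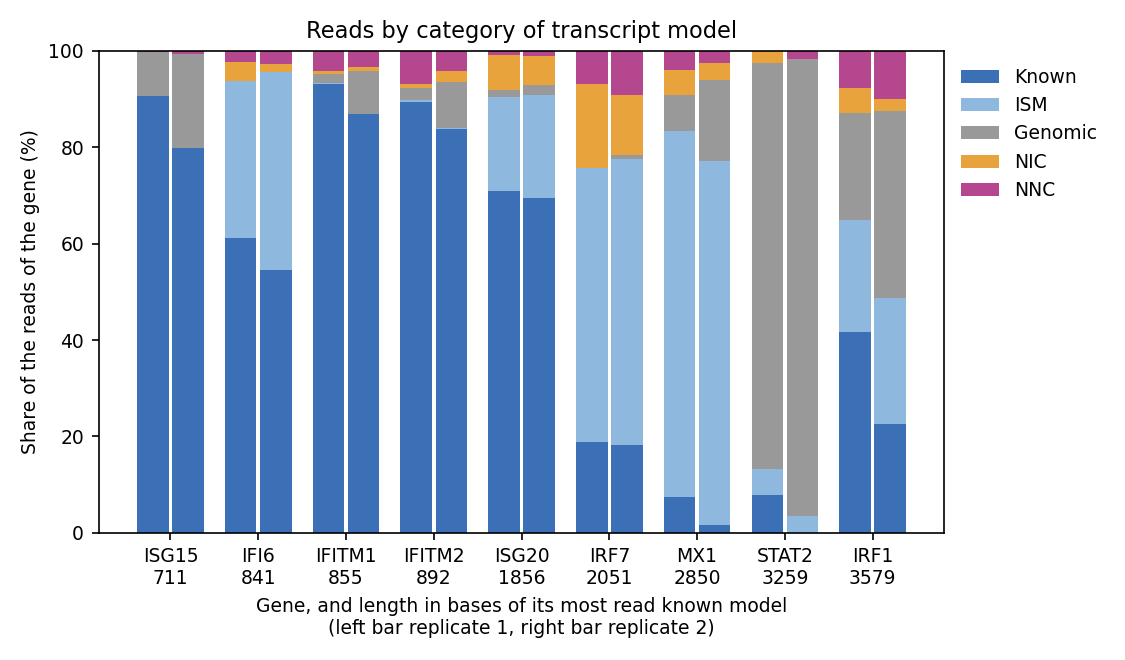
Share of the reads of each gene by category of transcript model, for replicate 1 (left bar) and replicate 2 (right bar), with genes ordered by the length in bases of their most read known model. Known models fill most of the bars of ISG15, IFITM1 and IFITM2, ISM models those of IRF7 and MX1, and genomic models those of STAT2.

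What replaced the known reads differed from gene to gene. MX1 was read mainly as incomplete models, with 330 of 434 reads in ISM models in replicate 1 (76.0%, 71.8 to 79.8%) and 402 of 533 in replicate 2 (75.4%, 71.6 to 78.9%). Of these ISM reads, 93.0% and 94.3% were in suffix models, which keep the 3′ end of the transcript. IRF7 had 56.8% and 59.3% of its reads in ISM models, and 17.4% and 12.6% in NIC models, the highest NIC share of the 9 genes. IFI6 had 32.5% and 41.1% in ISM models, and 61.0% and 56.6% of these ISM reads were in a model of 1 exon. ISG15 had no ISM read among 409 and 540, which allows up to 0.733% and 0.556%.

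STAT2 was read almost wholly through 1 genomic model without introns. That model, of 1340 bases, received 31 of 38 reads (81.6%) in replicate 1 and 55 of 59 (93.2%) in replicate 2. STAT2-201 has 24 exons and its last exon has 822 bases (chromosome 12, 56342710 to 56343531, GRCh38), so the unspliced model was longer than that exon. The level of STAT2 given above therefore rests mainly on models that cross no splice junction. Without genomic models, 6 and 3 reads were left, too few to be tested.

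Unspliced genomic models were found in 8 of the 9 genes. In 5 of the 8 (IFITM1, IFITM2, ISG15, MX1 and STAT2) the most read of them was longer than the last exon of the main known model. In 3, IFITM1, IFITM2 and ISG15, it was longer than the whole spliced model, with 1257 against 855 bases, 919 against 892 and 1044 against 711. These lengths are those of the deposited models, not of each read, and the table gives no position for them. In IFI6 no genomic model was listed, and a 1-exon ISM model of 415 bases, as long as the last exon of IFI6-202, held 25 of 126 and 43 of 185 reads.

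The known share was lower in replicate 2 in all 9 genes, and the difference passed the test in 3 of them, IFITM1, ISG15 and MX1. Across the 6340 genes tested, 27.1% passed in either direction and 26.9% downward, and 79.4% were lower in replicate 2. The count for the 9 genes was thus near that of all genes. ISG15 went from 371 of 409 reads to 431 of 540, a difference of -10.9 percentage points (Fisher's exact test, Benjamini-Hochberg adjusted p of 4.7e-05). IFITM1 went from 716 of 769 to 1123 of 1294, a difference of -6.32 percentage points (adjusted p of 7.0e-05, Fisher's exact test). MX1 went from 32 of 434 to 9 of 533, a difference of -5.68 percentage points (adjusted p of 0.00019, Fisher's exact test).

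Only the difference of MX1 remained when genomic models were left out, where STAT2 could not be tested and 26% of all genes tested passed. IFITM1 then had a difference of 0.29 percentage points (adjusted p of 1.0, Fisher's exact test) and ISG15 one of -0.65 (adjusted p of 0.61, Fisher's exact test). The genomic share itself was 1.95% (1.19 to 3.19%) and 8.89% (7.46 to 10.6%) of the reads of IFITM1, and 9.05% (6.63 to 12.2%) and 19.4% (16.3 to 23.0%) of those of ISG15, with Wilson intervals that did not overlap. In IFITM2 it was 2.56% (1.25 to 5.2%) and 9.58% (7.19 to 12.7%), and in MX1 7.37% (5.27 to 10.2%) and 16.9% (13.9 to 20.3%), also without overlap. How many of all genes had such intervals was not counted. Over all genes the genomic share was 11.01% and 15.3%.

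**Figure D4:**
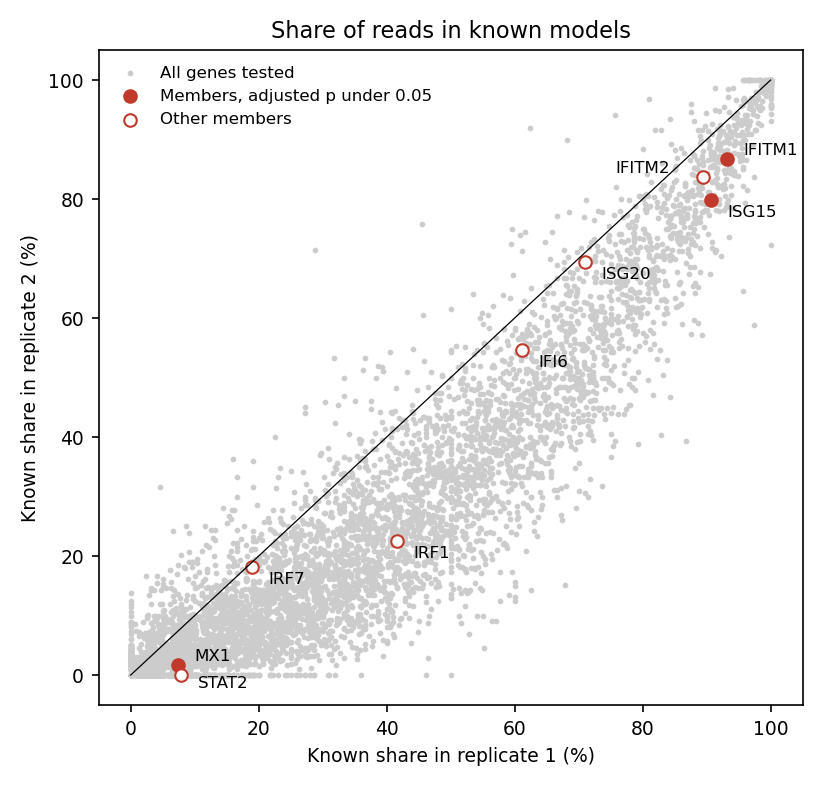
Share of the reads of a gene in known models in replicate 1 (horizontal) and replicate 2 (vertical), in percent, for all genes tested (grey) and the 9 genes (red circles, filled where the adjusted p was under 0.05). All 9 lie below the line of equal shares, as does most of the grey cloud; of the 9, IRF1 lies farthest from the line, at 41.6% and 22.5%.

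IRF1 showed the widest gap in known share, -19.1 percentage points, but with 32 of 77 and 18 of 80 reads it did not pass (adjusted p of 0.057, Fisher's exact test). The differences of IFI6 (-6.52), IFITM2 (-5.64), STAT2 (-7.89), ISG20 (-1.58) and IRF7 (-0.76 percentage points) did not pass either.

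The number of exons of a model says how much of the splice chain its reads were assigned. MX1-202 (chromosome 21, 41426167 to 41459214, plus strand) has 17 exons. Models with 16 or more exons held 111 of the 434 MX1 reads in replicate 1 (25.6%) and 48 of 533 in replicate 2 (9.01%). Models with 1 exon held 7.37% and 16.9%, and models with 2 to 4 exons 31.8% and 39.6%. The mean over reads was 8.82 exons in replicate 1 and 6.03 in replicate 2. MX1-202 itself had 30 reads and 7.

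For MX1 the result therefore depended on which reads were counted. All reads gave the log2 ratio of 0.14 reported above, whereas known models only gave -1.64 (32 and 9 reads; adjusted p of 0.0085, exact binomial test). In that count the median of all genes was itself -0.26. The 2 most read MX1 models were suffix models of 4 exons (57 and 74 reads) and of 2 exons (47 and 83 reads). Of the 160 MX1 models, 108 rested on a single read, which cannot be in both libraries, and 37 were read in both.

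**Figure D5:**
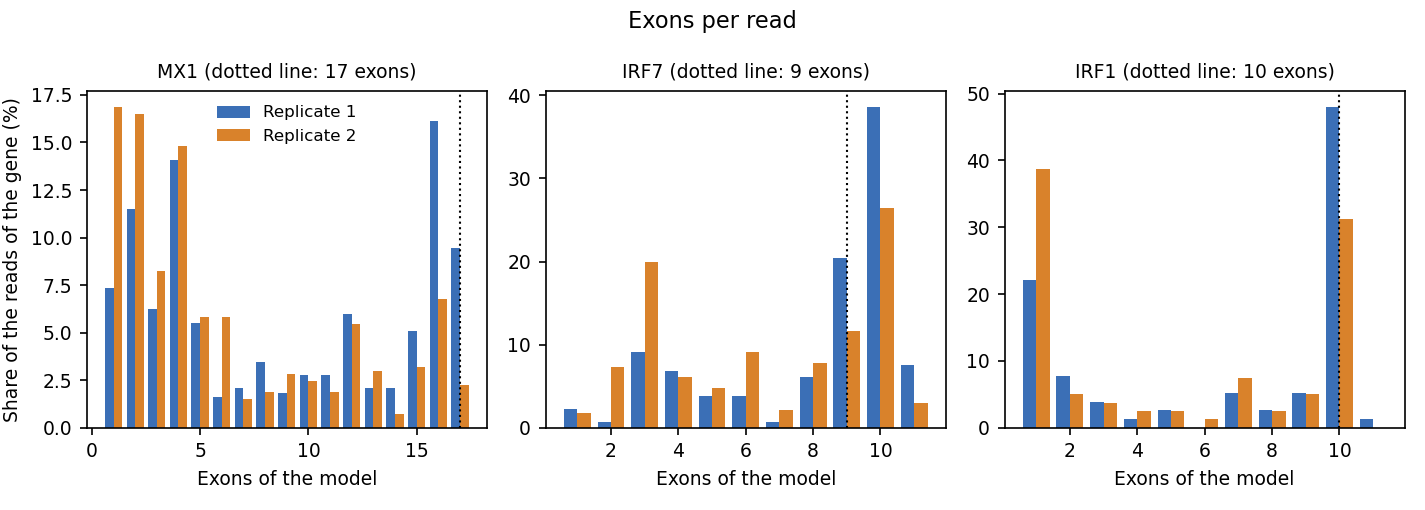
Share of the reads of MX1, IRF7 and IRF1 by the number of exons of their model, in replicate 1 (blue) and replicate 2 (orange); the dotted line marks the exon number of the most read known model. In MX1 the bars at 16 and 17 exons are 16.1% and 9.45% in replicate 1 against 6.75% and 2.25% in replicate 2, and the 1-exon bar is 7.37% against 16.9%.

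IRF7 (chromosome 11, 612553 to 615999, minus strand) had 89 models, 9 of them known, and its reads were spread over many of them. The most read was a suffix ISM model of 10 exons and 1852 bases, with 35 reads (26.5%) in replicate 1 and 43 (18.6%) in replicate 2. A suffix model of 3 exons had 7 and 30 reads, or 5.30% and 12.99%. Among the known models, IRF7-203 (9 exons) had 9 and 8 reads and IRF7-205 (11 exons) had 9 and 6 reads. IRF7-211, annotated as a retained intron of 2 exons and 806 bases, had 1 and 16 reads. Over both libraries IRF7-203 and IRF7-211 were thus tied, and IRF7-203 was taken as the main known model.

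Use of the known IRF7 models differed between the libraries over these 3 models with at least 10 reads (19 and 30 reads; permutation test of the reads, adjusted p of 0.012). Of the 9 genes 3 could be tested and only IRF7 passed, while 25.5% of the 1175 genes tested did. IRF7-211, with 1 read in replicate 1 and 16 in replicate 2, lies at the 3′ end of the gene (612588 to 613591). In models of 9 or more exons, IRF7 had 66.7% of its reads in replicate 1 (58.3 to 74.1%) and 41.1% in replicate 2 (34.98 to 47.6%). The share in models with at least as many exons as the main known model was lower in replicate 2 in all 9 genes. The 1-exon share was higher there in 8 of them. These exon shares were not computed for all genes, so they cannot be called particular to the 9. Known models held 55.9% and 45.9% of all reads of the 2 libraries.

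ISG20 (chromosome 15, 88636153 to 88656483, plus strand) was read mainly as ISG20-201, with 80 of 124 and 117 of 196 reads (64.5% and 59.7%). A suffix model of 3 exons and 955 bases held 24 and 38 reads, 19.4% in each library. The retained intron model ISG20-204 had 4 and 11 reads, and ISG20-208 had 4 and 8. Their use did not pass the test (adjusted p of 0.77, permutation test of the reads).

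IFI6 (chromosome 1, 27666061 to 27672218, minus strand) was read mainly as IFI6-202, with 67 and 89 reads (53.2% and 48.1%). IFI6-203 had 7 and 11 reads, and the use of the pair did not pass (adjusted p of 0.91, Fisher's exact test). IRF1 (chromosome 5, 132481609 to 132490798, minus strand) was spread over IRF1-201, with 30 and 17 reads, ISM models, with 18 and 21, and unspliced genomic models, with 17 and 31. IRF1 lies across from C5orf56 (13 reads in each library) and AC116366.3 (33 and 27 reads) on the opposite strand. The use of strand in the counting is not given in the sources used here, so an exchange of reads between them cannot be judged.

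Of all 366 models, 221 rested on 1 read and 121 were read in both libraries. A model on 1 read could not be read in both. Of the 237608 models of the whole series, 152141 were read in replicate 1 and 155887 in replicate 2. Their share read in both was not computed, so the 121 are a description only. The models on 1 read were 108 of 160 in MX1 and 54 of 89 in IRF7, but also 5 of 7 in ISG15. Among 27 known models 20 were read in both, against 56 of 158 ISM, 10 of 16 genomic, 19 of 84 NIC and 16 of 81 NNC models. Those on 1 read were 4 known, 92 ISM, 5 genomic, 58 NIC and 62 NNC models. The contrast between categories therefore cannot be separated from the read number of their models. An NNC model of IFITM1 with 1176 bases had the most reads of any NIC or NNC model of the 9 genes, 24 and 33. It was chosen after its values were seen.

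In its shares of reads over the 5 categories, IFITM1 was most like HIGD2A, MRPL51 and AP2S1. These were the nearest of 1911 other genes with at least 100 reads in each library, at distances of 3.21, 3.62 and 3.88 percentage points over 10 values. All these values come from the same 2 libraries, so the likeness is a description of them.

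Other genes of the pathway were taken from a list of 62, which included receptors, kinases, sensors and further effectors. Of these 60 had a read and 54 had at least 10. IRF4, a factor of B cell differentiation, was the 1 gene of the 54 that passed the test. It fell from 459 to 403 reads, or 337 to 267 CPM, which is -0.34 on the log2 scale (exact binomial test, adjusted p of 0.016). The median log2 ratio of the 54 was 0.12, and 34 of them lay above 0, while 51.1% of all genes tested did. BST2, a tether of budding virus, had the highest mean, 429 CPM. It was followed by IRF4 with 302 CPM, ADAR, which edits double-stranded RNA, with 164 CPM, UBE2L6, the conjugating enzyme for ISG15, with 157 CPM, and SP100, a nuclear body protein, with 133 CPM. IRF4 did not pass without genomic models (457 and 403 reads, adjusted p of 0.082 in the exact binomial test). There 3 other genes of the list passed, IFNGR2 upward and IRF5 and JAK1 downward, as did 8.26% of all genes tested in either direction. With known models only IRF4 had 4 reads and 0 and could not be tested, and 4 other genes passed, all downward (IFIT3, IRF5, MYD88 and OAS2), where 18.8% of all genes tested passed in either direction.

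Of the 4 interferon genes on the list, IFNB1 and IFNG had 1 read each in 1 library and IFNA1 and IFNL1 had none. With no read, a level of at most 2.21 CPM (replicate 1) or 1.99 CPM (replicate 2) is allowed. All 9 receptor and kinase genes were read, from 4.85 CPM for IFNLR1 to 84.2 CPM for TYK2.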

How the data were processed

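Direct RNA reads of 2 GM12878 libraries (1360368 and 1510998 reads) were analysed from 1 table. The authors deposited whole-number read counts per transcript model, not normalized; the table's name gives TALON, and minimap2 and hg38 are listed per the submitters' processing notes, without versions. The number of exons and of bases of each model, other properties, were also deposited by the authors. All 23533 known models matched GENCODE release 29 in identifier, exons and length, so positions (GRCh38) come from it. The genes and lists were chosen with earlier results of these data known.

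Reads were summed over the models of a gene. Levels were tested with two-sided exact binomial tests against the library totals (at least 10 reads, 0.5 reads added for ratios). Known shares were tested with Fisher's exact test (at least 20 reads per library), and model usage with Fisher's exact test or 10000 permutations of the reads (known models with at least 10 reads). Each was Benjamini-Hochberg adjusted over all genes tested, at 0.05. The tests were also run on simulated reads with counting error alone, which does not show how they treat extra variation between libraries. With 2 libraries of 1 group, no count model between conditions can be fitted. Wilson, exact and 3-read limits (95%) cover counting error only. The text names all 9 genes, their main known model and models with 10% of reads, the 5 highest and the called genes of the wider list, and the 3 genes most like IFITM1; others were chosen after their values were seen. 1 gene of the wider list is not reported here. CGAS was listed under an older symbol, matched through RefSeq. Alternatives were known models only, no genomic models, TMM scaling (edgeR 4.0.16), DESeq2 1.42.0 size factors, other read minimums and 1 read added. Python 3.11.15 and scipy 1.17.1 were used.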

Additional observations from a re-analysis of the deposited data

How the results depend on the processing

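No paired analysis was possible because both libraries belong to 1 group. Without a replicate, each level is that of the other library, given above. IFITM1 and IFITM2 passed upward under all 7 alternatives for the level, and the count of genes that passed ranged from 3 to 5 of 9. The 5 came with known models only, where 18.8% of all genes passed, against 2.78% with no minimum. ISG20 was lost with TMM scaling and with no minimum, and IRF7 with known models only (log2 ratio 0.87, adjusted p of 0.069, exact binomial test; 23 and 21 reads in protein-coding models, 1 and 17 in retained intron models), where ISG15 passed (0.35, adjusted p of 0.0062) and MX1 reversed to -1.64. STAT2 could not be tested without genomic models or with known models only. Of the wider list 1 gene passed, and 4 with known models only, where 5.05% and 18.8% of all genes tested did. Without genomic models 3 passed and with a minimum of 20 reads 2, against 8.26% and 6.34% of all genes. With known models only, fewer genes of the list could be tested. The known share differed in 3 of 9 genes, but in 1 of 8 without genomic models or with models of 2 or more exons. STAT2 could not be tested in those 2 settings. Of all genes tested 27.1% passed, against 26% without genomic models and 23.9% with models of 2 or more exons. In both of these settings IFITM1 and IFITM2 reversed to 0.29 and 0.88 percentage points, of which neither passed. Model usage differed in 1 gene, and in 2 (IRF7 and MX1) with ISM, NIC and NNC models included, where 6 of the 9 could be tested, not 3, and 45.8% of all genes passed, not 25.5%. Read number limited STAT2 and IRF1 most, whose log2 ratios had intervals wider than those of MX1, although all 3 spanned 0.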

Other observations

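Among the other effectors of the wider list, chosen after their values were seen, the levels were far apart. IFIT1, which binds viral RNA ends, had 26 and 32 reads, IFIT3 had 64 and 57, and OAS2, a sensor of double-stranded RNA, had 115 and 174. RSAD2 had 2 and 1 reads and IFI27 had 4 and 0, below the lowest of the 9 genes described above, STAT2 with 38 and 59. In mean CPM, IFIT1 (20.1) also lay below STAT2 (33.5), as did HERC5 (29.6) and USP18 (26.6) of the enzymes named next. The enzymes that attach ISG15 to proteins or remove it were all read, with 52 and 71 reads for UBA7, 191 and 263 for UBE2L6, 30 and 56 for HERC5 and 40 and 36 for USP18. Of these 9 genes 7 had at least 10 reads, and none of the 7 passed the test between the libraries (exact binomial test, 3 with an unadjusted p under 0.05). With known models only, IFIT3 (33 and 5 reads, log2 ratio of -2.47) and OAS2 (41 and 12 reads, -1.60, against 0.44 over all models) passed downward (exact binomial test, adjusted p of 0.00020 and 0.0031), as did 18.8% of all genes in either direction. The known share of 3 of them did differ (Fisher's exact test, as for 27.1% of all genes tested). It was 51.6% and 8.77% in IFIT3, 35.7% and 6.90% in OAS2, and 76.4% and 47.9% in UBE2L6.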
